A study of Mus musculus with 6 samples.

Results

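Macrophages and microglia, the resident phagocytes of tissue and of the nervous system, were followed in the mouse lens through a list of 33 genes that mark them. The list is a set of gene names and no measured value enters its rule. Every one of the 33 had at least 1 probe set that the array's annotation assigns to that gene alone, which made 61 of the 45037 probe sets tested, and 33 of the 18193 genes with such a probe set. For 18 genes there was 1 probe set and for 15 there were several. RNA came from ocular lenses of embryos at E19.5 (embryonic day 19.5, shortly before birth) whose genetic background mixed C57BL/6 with FVB/N. The wild type group held 3 littermates that kept Notch2 in the lens, and the Notch2 mutant group held 3 embryos with conditional ablation of this Notch receptor in the lens. The labels name neither the promoter that drove the ablation nor the part of the gene removed. Each array carried the RNA of the 2 pooled lenses of 1 embryo, described in the labels as biological replicates. Surrounding tissue was dissected off and no sort of cells is described, so the arrays hold the RNA of every cell left on the lens.

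The lens has no vessels of its own. Before birth it is wrapped by the hyaloid vasculature, a temporary network with macrophages along its vessels, and those macrophages take part in the regression of the network. Many macrophages depend on the receptor Csf1r for survival, many make the 3 chains of complement C1q, and they carry receptors that signal through the adaptors Tyrobp and Fcer1g. Microglia, their relatives in retina and brain, are set apart by nucleotide and chemokine receptors such as P2ry12 and Cx3cr1, and macrophages along vessels by Mrc1 and Cd163.

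Promoters of the members were searched for the short sequences that macrophage factors are known to bind. RefSeq promoter windows of assembly GRCm38.p6 matched 26 of the 33 genes by symbol, and the 250 bases before each start were searched on both strands. GAGGAA, the core bound by the Ets factor PU.1, was in 14 of the 26 genes, against 25.9% of 27025 genes. Its longer form GAGGAAGT, which contains it, was in 1 of 26 (2.79% of all genes), the Ets core GGAAGT, which overlaps both, in 10 (22.2%), and the Ets and IRF composite element, GGAA followed after 2 bases by GAAA, in 1 (2.68%). TGTGGT, the Runx core, was in 6 (15.9%), TTGCNNAA, bound by C/EBP factors, in 4 (10.8%), TGANTCA, bound by AP-1, in 3 (7.82%), and TATAAA, the TATA box, in 4 (14.3%). Such a match is a string of letters and not a measured binding site. GAGGAA was in 6 of the 10 genes with a window that were higher in mutant lenses at an unadjusted p under 0.05, and in 8 of the other 16. The 200 bases before the start are shown for the 5 genes that had a window and a difference above 1.2 on the log2 scale, and for Fcgr1 and P2ry12, whose differences were near 0. Capitals mark GAGGAA or the composite element on either strand, so that a match on the opposite strand reads TTCCTC or starts with TTTC. The windows are chr4:136886201-136886400, minus strand (C1qb), chr4:136892915-136893114, minus strand (C1qc), chr3:95526586-95526785, plus strand (Ctss), chr1:171059404-171059603, minus strand (Fcgr3), chr1:170976072-170976271, minus strand (Fcgr2b), chr3:96293970-96294169, minus strand (Fcgr1) and chr3:59262986-59263185, minus strand (P2ry12).
C1qb: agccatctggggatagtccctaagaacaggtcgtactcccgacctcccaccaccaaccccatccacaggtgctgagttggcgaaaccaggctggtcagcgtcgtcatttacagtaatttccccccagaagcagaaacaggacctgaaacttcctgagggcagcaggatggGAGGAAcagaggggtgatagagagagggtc
C1qc: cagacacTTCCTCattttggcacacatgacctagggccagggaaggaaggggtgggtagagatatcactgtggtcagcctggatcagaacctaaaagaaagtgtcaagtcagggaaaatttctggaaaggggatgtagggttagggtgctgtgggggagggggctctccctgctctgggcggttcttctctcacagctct
Ctss: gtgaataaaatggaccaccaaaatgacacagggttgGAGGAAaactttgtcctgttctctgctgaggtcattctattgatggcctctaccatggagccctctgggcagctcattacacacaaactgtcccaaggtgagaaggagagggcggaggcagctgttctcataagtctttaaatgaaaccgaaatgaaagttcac
Fcgr3: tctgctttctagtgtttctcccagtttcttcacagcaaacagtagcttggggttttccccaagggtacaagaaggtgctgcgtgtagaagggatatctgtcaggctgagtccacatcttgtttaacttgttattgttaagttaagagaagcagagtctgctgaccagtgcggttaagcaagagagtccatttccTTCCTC
Fcgr2b: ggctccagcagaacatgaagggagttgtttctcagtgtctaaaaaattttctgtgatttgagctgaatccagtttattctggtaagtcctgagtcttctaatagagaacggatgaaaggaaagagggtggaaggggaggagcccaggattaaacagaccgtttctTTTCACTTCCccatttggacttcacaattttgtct
Fcgr1: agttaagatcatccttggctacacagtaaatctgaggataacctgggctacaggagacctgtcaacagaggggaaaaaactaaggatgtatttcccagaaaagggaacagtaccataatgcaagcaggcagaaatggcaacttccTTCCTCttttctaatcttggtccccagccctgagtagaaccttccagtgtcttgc
P2ry12: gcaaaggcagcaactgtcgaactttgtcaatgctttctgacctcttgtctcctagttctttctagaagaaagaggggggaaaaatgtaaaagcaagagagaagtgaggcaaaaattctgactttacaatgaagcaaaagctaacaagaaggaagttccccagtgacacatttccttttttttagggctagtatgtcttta
GAGGAA began 30 bases before the start of C1qb, 193 before that of C1qc on the opposite strand, 164 before that of Ctss, 6 before that of Fcgr3 on the opposite strand, and 55 before that of Fcgr1 on the opposite strand. In Fcgr2b the composite lay 35 bases before the start on the opposite strand, and the P2ry12 window held neither string.

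Notch2 itself gave no check of the labels. Its 2 probe sets disagreed in sign, at 0.49 (SE 0.45) and -0.42 (SE 0.21), and neither can be placed inside or outside the ablated part. The arrays were not alike within a group. Wild type 2 stood apart in some granulocyte transcripts but not in others. For S100a8 the 3 wild type arrays read -0.23, 6.01 and -0.029, against -0.031, 0.67 and 0.029 on the mutant arrays. For S100a9 they read -0.60, 4.78 and -0.29, against -0.64, 1.14 and 0.29. Camp and Ltf were also highest of the wild type arrays in wild type 2, while Mpo, Elane and Prtn3 were highest in wild type 3. Of the 24 measured genes of other leukocytes, these included, wild type 2 was the highest wild type array in 8. Endothelial and pericyte genes were highest of the wild type arrays in wild type 2 in 19 of 20, against 30.6% of all genes. Xist, the RNA of the inactive X chromosome, split the arrays another way, with a mean over its 3 probe sets of 7.11 in wild type 2 and 6.87 in mutant 3 and of -0.69 to 0.04 in the other 4, and the labels give no sex. Hybridization controls, here those named bioB alone, were higher in wild type 3, mutant 2 and mutant 3 than in the other 3 arrays. The spread over all probe sets was largest in wild type 3, with a standard deviation (SD) of 0.384 against 0.223 to 0.332 in the others.

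All values below are on a log2 scale and centred, with 0 at the median of the 6 arrays for that probe set, so they give differences between arrays and no level. Whether macrophage or lens transcripts were above background on any array, and how genes rank in level, could not be read from them. Array values are listed for replicates 1, 2 and 3 in that order. A difference is mutant minus wild type with its standard error (SE) and limma's p adjusted over all 45037 probe sets, n = 3 arrays per group, and a gene passed at an adjusted p below 0.05. Where a gene had several probe sets, the one with the largest SD over the 6 arrays stands for it. The others are given beside it for every member, and for genes of other lists in part. That SD includes the gap between the groups, so the rule tends to pick probe sets with larger differences of either sign. The shares over all genes follow the same rule.

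**Figure D1:**
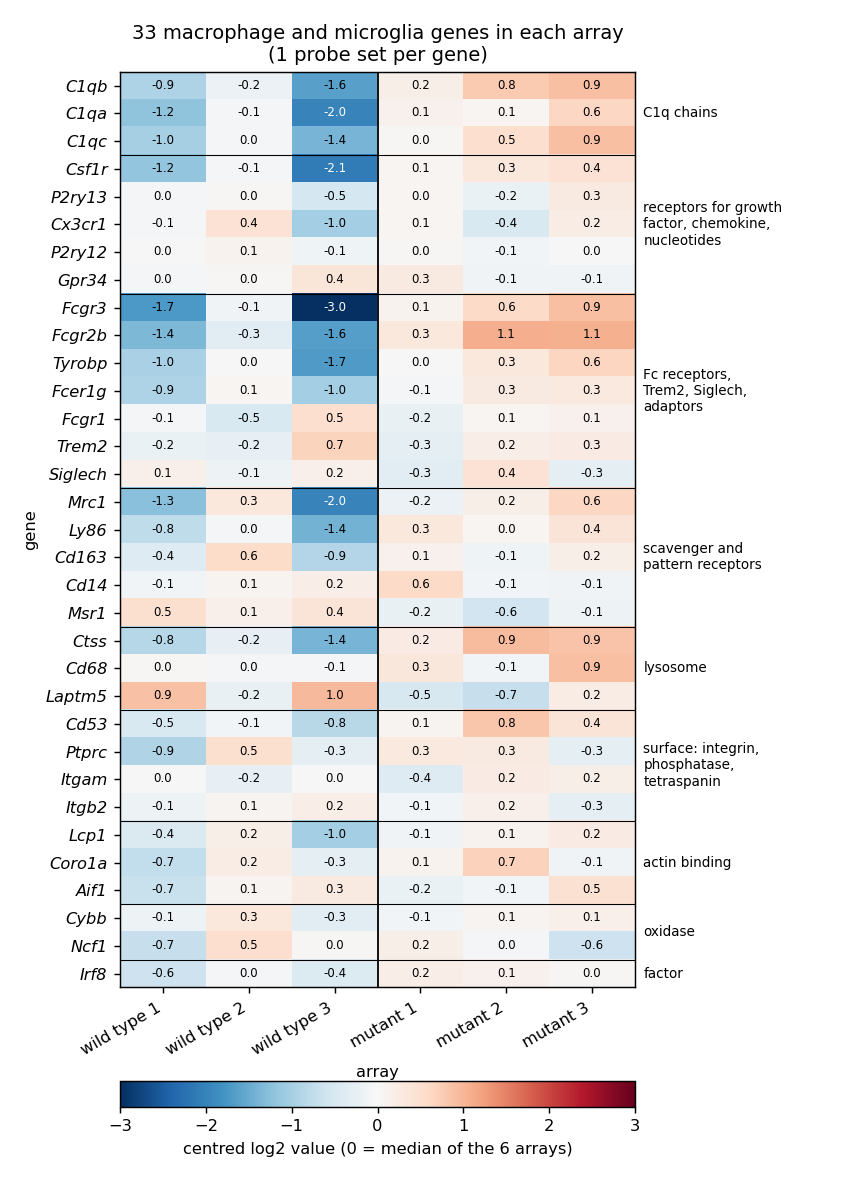
Centred log2 value of the 33 genes (rows, grouped by role, 1 probe set per gene) in the 6 arrays (columns), with 0 at each probe set's median. Fcgr3, Csf1r, C1qa, C1qb and C1qc were lowest in wild type 3 and next lowest in wild type 1, while wild type 2 lay near the mutant arrays; rows such as P2ry12, Itgb2 and Itgam stayed close to 0 throughout.

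None of the 61 probe sets passed, where limma called 0.469% of all probe sets. The smallest adjusted p, 0.0552, belonged to Fcgr2b. At an unadjusted p under 0.05, 19 of the 61 were higher in mutant lenses (6.11% of all probe sets) and 4 were lower (5.46%). Counted by gene, 13 of 33 were higher at that level (8.22% of all genes) and 2 were lower (7.34%), and 25 of 33 had a positive difference, against 45.9% of all genes. Over the 33 genes the median difference was 0.31, and over all genes it was -0.029. The list was uneven: 9 genes had a difference above 1 (1.58% of all genes), while 12 lay within 0.2 of 0 (49.6% of all genes). In bulk RNA, a change in the number of cells of a type and a change in RNA per cell cannot be told apart.

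The groups did not overlap in 10 of the 33 genes with the mutant arrays higher (9.48% of all genes), which are 10 of the 13 above, and in 1 with the mutant arrays lower (10.1%). By probe set, 15 of the 61 did not overlap with mutant arrays higher (8.73% of all probe sets) and 4 with mutant arrays lower (9.1%). Wild type 2 was the highest wild type array in 22 of the 33 genes (30.6% of all genes) and in 13 of the 13. In 13 of the 13 it also lay nearer to the lowest mutant array than to the next wild type array. No share over all genes was taken for that placing, and the 13 were chosen on these same arrays. Wild type 3 was the lowest wild type array in 19 of the 33 genes (38.0% of all genes) and in 12 of the 13, with Irf8 as the exception. Over these 13 genes the array means were -1.01, -0.060 and -1.58 for wild type against 0.11, 0.47 and 0.62 for mutant. Over all 33 genes the spread among wild type arrays exceeded that among mutant arrays in 25, against 46.1% of all genes, with a median SD of 0.57 in wild type and 0.33 in mutant lenses. Without wild type 2, 6 member probe sets passed (0.344% of all), 1 each of Fcgr3, Fcgr2b, C1qb, C1qa, Csf1r and Ctss, and the median difference over the 33 genes became 0.63. Without wild type 3, the differences of 5 of the 13 genes were smaller by over 1.5 times: Mrc1 was 0.68 in place of 1.18, Csf1r 0.90 in place of 1.39, C1qa 0.90 in place of 1.36, Tyrobp 0.80 in place of 1.21 and Ly86 0.65 in place of 0.99. Without wild type 2 that of Mrc1 was 1.84. None passed when wild type 1 or 3 was left out instead (0.0178% and 0.109% of all probe sets), or mutant 1, 2 or 3 (0.0266%, 0.0155% and 0.202%). Other settings with all 6 arrays let some pass: 5 with array weights (1.97% of all probe sets), 4 after repeated quantile normalisation (1.3%), 2 of 33 when 1 probe set per gene was tested (1.2% of genes) and 11 of 45 among probe sets with an SD above the median (3.28%).

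The differences were also taken within each split of the arrays, on 1 or 2 arrays a side and with no test. Among the 4 arrays low in Xist, 2 of each genotype, the median over the 33 genes was 0.63, and between mutant 3 and wild type 2, the arrays high in Xist, 0.29. Within the arrays with lower hybridization controls it was 0.30, and within those with higher controls 0.56. Over the 13 genes, which were chosen for a positive difference on the same arrays, the medians were 1.63, 0.64, 0.68 and 2.29 in the same order.

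**Figure D2:**
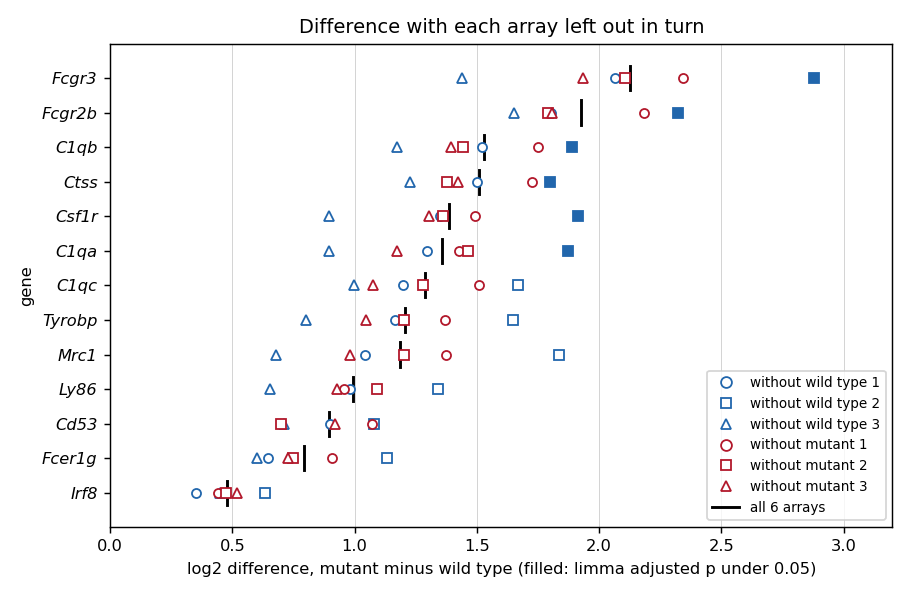
Log2 difference (x axis, mutant minus wild type) of the 13 genes that were higher at an unadjusted p under 0.05 (y axis), with all 6 arrays (black bars) and with each array left out (symbols, filled where limma's adjusted p was below 0.05). The filled symbols are those of 6 genes without wild type 2, such as Fcgr3 at 2.88, and leaving out wild type 3 gave the smallest difference for most genes.

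The C1q chains, A, B and C, assemble into the molecule that starts the classical complement pathway and tags debris for uptake. Their genes lie side by side in the order C1qb, C1qc and C1qa in the RefSeq annotation. C1qb read -0.92, -0.18 and -1.62 on the wild type arrays against 0.18, 0.79 and 0.89 on the mutant arrays, a difference of 1.53 (SE 0.34, adjusted p = 0.0946), or 2.88-fold. C1qa read -1.20, -0.050 and -2.005 on the wild type arrays against 0.13, 0.050 and 0.63 on the mutant arrays, a difference of 1.36 (SE 0.42, adjusted p = 0.228). C1qc read -0.98, -0.042 and -1.38 on the wild type arrays against 0.042, 0.51 and 0.91 on the mutant arrays, a difference of 1.29 (SE 0.34, adjusted p = 0.158). In all 3 chains wild type 3 was lowest and wild type 1 next, and the groups did not overlap, although wild type 2 lay only 0.10 below the lowest mutant array for C1qa and 0.084 below it for C1qc. The other C1qb probe sets, both of the _x_at kind that can share probes with unrelated transcripts, differed by 0.64 (SE 0.31) and 0.76 (SE 0.21).

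Of the receptors for growth factor, chemokine and nucleotides, Csf1r, the receptor for Csf1 and Il34 on which macrophage survival depends, was the only one with a difference above 1. Csf1r read -1.19, -0.059 and -2.09 on the wild type arrays against 0.059, 0.32 and 0.44 on the mutant arrays, a difference of 1.39 (SE 0.42, adjusted p = 0.222), or 2.61-fold. Its 2 other probe sets differed by 1.11 (SE 0.32) and 0.60 (SE 0.18), and in each of the 3 the groups did not overlap. Cx3cr1, the fractalkine receptor, read -0.068, 0.44 and -1.02 on the wild type arrays against 0.068, -0.45 and 0.21 on the mutant arrays, a difference of 0.16 (SE 0.34, adjusted p = 0.908), with wild type 2 above every mutant array and wild type 3 below them. A second Cx3cr1 probe set differed by 0.0032 (SE 0.20). P2ry12, the ADP receptor that marks microglia, read 0.023, 0.11 and -0.14 on the wild type arrays against 0.031, -0.072 and -0.023 on the mutant arrays, a difference of -0.021 (SE 0.15, adjusted p = 0.977). Its relatives P2ry13, which lies next to it, and Gpr34, a lysophospholipid receptor, differed by 0.21 (SE 0.20) and -0.095 (SE 0.18). The groups overlapped in all 4 of these genes. A flat reading such as that of P2ry12 could come from a transcript that did not change or from one below detection, and centred values do not tell these apart.

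The Fc receptors bind the constant part of antibodies, and the activating ones signal through Fcer1g, the common gamma chain. Fcgr3, a low-affinity activating receptor, read -1.73, -0.097 and -2.98 on the wild type arrays against 0.097, 0.57 and 0.91 on the mutant arrays, a difference of 2.13 (SE 0.59, adjusted p = 0.179), or 4.37-fold, the largest of the 33 genes. Its SD was 1.45 among the wild type arrays and 0.41 among the mutant arrays. Fcgr2b, the inhibitory receptor, read -1.35, -0.31 and -1.65 on the wild type arrays against 0.31, 1.10 and 1.06 on the mutant arrays, a difference of 1.93 (SE 0.35, adjusted p = 0.0552), or 3.8-fold, with no overlap. Its 4 other probe sets were smaller, at 0.78 (SE 0.16), 0.76 (SE 0.24), 0.37 (SE 0.21) and 0.019 (SE 0.23). The probe set with the largest SD is of the _s_at kind, which can match more than 1 transcript, and Fcgr2b and Fcgr3 are close relatives separated by Fcgr4 alone, so their signals may be shared in part. Fcgr1, the high-affinity receptor, differed by 0.0035 (SE 0.24) and, by its other probe set, 0.044 (SE 0.19).

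The adaptors had larger differences than Trem2 and Siglech, receptors that signal through Tyrobp. Tyrobp read -0.96, 0.0031 and -1.69 on the wild type arrays against -0.0031, 0.33 and 0.64 on the mutant arrays, a difference of 1.21 (SE 0.37, adjusted p = 0.233), and Fcer1g -0.92, 0.056 and -1.01 on the wild type arrays against -0.056, 0.26 and 0.30 on the mutant arrays, a difference of 0.79 (SE 0.28, adjusted p = 0.291). Wild type 2 lay above mutant 1 in both, narrowly for Tyrobp, so the groups overlapped there. Trem2, the lipid receptor of phagocytes, read -0.19, -0.25 and 0.68 on the wild type arrays against -0.27, 0.19 and 0.26 on the mutant arrays, a difference of -0.025 (SE 0.27, adjusted p = 0.985), while its second probe set differed by 0.14 (SE 0.21). Siglech, a sialic acid receptor of microglia and plasmacytoid dendritic cells, differed by -0.12 (SE 0.23).

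Among scavenger and pattern recognition receptors the readings diverged. Ly86, the partner of the Toll-like receptor homologue Cd180, read -0.76, -0.049 and -1.42 on the wild type arrays against 0.32, 0.049 and 0.38 on the mutant arrays, a difference of 0.99 (SE 0.30, adjusted p = 0.226), without overlap. Mrc1, the mannose receptor of vessel-associated macrophages, read -1.27, 0.32 and -1.99 on the wild type arrays against -0.17, 0.17 and 0.62 on the mutant arrays, a difference of 1.18 (SE 0.50, adjusted p = 0.403). Wild type 2 lay above mutant 1 and mutant 2 in Mrc1, and the spread was 1.18 among wild type arrays against 0.40 among mutant arrays. Cd163, the haemoglobin scavenger receptor, differed by 0.29 (SE 0.32), with wild type 2 highest of all arrays. Cd14, the lipopolysaccharide co-receptor, differed by 0.061 (SE 0.21). Msr1, scavenger receptor A, went the other way: 0.49, 0.14 and 0.38 on the wild type arrays against -0.23, -0.56 and -0.14 on the mutant arrays, a difference of -0.65 (SE 0.18, adjusted p = 0.166), the 1 gene of the 33 with mutant arrays lower and no overlap. Its 3 other probe sets differed by -0.36 (SE 0.16), -0.051 (SE 0.24) and 0.037 (SE 0.15), and so disagreed in sign.

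**Figure D3:**
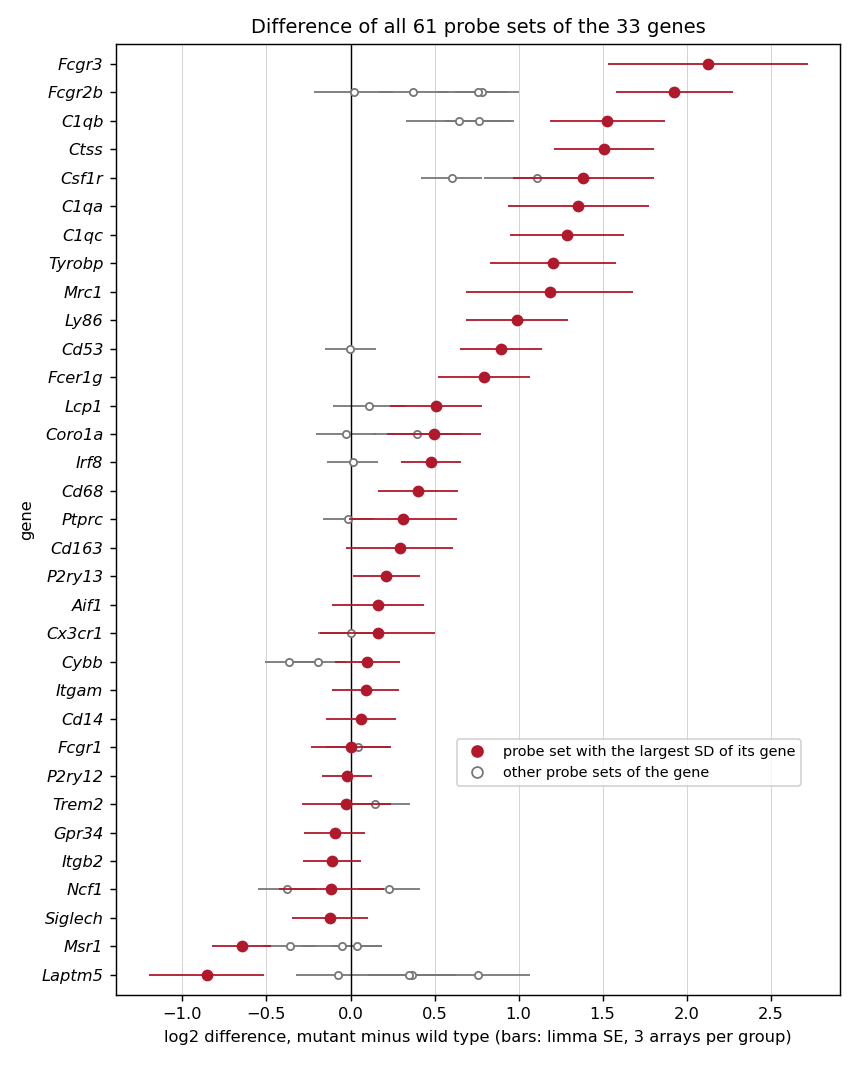
Log2 difference with its SE (x axis) of the 61 probe sets, by gene (y axis, ordered by the probe set that stands for the gene, filled; other probe sets open). The filled points run from -0.86 for Laptm5 to 2.13 for Fcgr3, and the open points of Laptm5, Fcgr2b and Msr1 lie away from the filled ones.

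Ctss, the lysosomal protease cathepsin S, had the smallest SE of the 9 genes with a difference above 1. Ctss read -0.85, -0.25 and -1.39 on the wild type arrays against 0.25, 0.94 and 0.85 on the mutant arrays, a difference of 1.51 (SE 0.30, adjusted p = 0.065), or 2.85-fold, with the lowest mutant array 0.49 above wild type 2. Cd68, a glycoprotein of macrophage lysosomes, differed by 0.40 (SE 0.24), with mutant 1 and mutant 3 above every wild type array and mutant 2 below them. Laptm5, a lysosomal membrane protein of blood cells, could not be settled, since its 5 probe sets differed in sign. The one with the largest SD read 0.88, -0.23 and 0.97 on the wild type arrays against -0.49, -0.68 and 0.23 on the mutant arrays, a difference of -0.86 (SE 0.34, adjusted p = 0.375). Another read -0.48, 0.16 and -0.71 on the wild type arrays against 0.50, -0.16 and 0.92 on the mutant arrays, a difference of 0.76 (SE 0.31, adjusted p = 0.375), and the remaining 3 differed by 0.37 (SE 0.26), 0.35 (SE 0.19) and -0.073 (SE 0.25).

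Of the surface proteins shared by most white blood cells, the tetraspanin Cd53 read -0.45, -0.090 and -0.83 on the wild type arrays against 0.090, 0.83 and 0.39 on the mutant arrays, a difference of 0.90 (SE 0.24, adjusted p = 0.17), without overlap. A second Cd53 probe set read -0.13, -0.022 and 0.22 on the wild type arrays against 0.076, -0.031 and 0.022 on the mutant arrays, a difference of -0.00014 (SE 0.15). Ptprc, the phosphatase CD45 found on nearly all white blood cells, read -0.89, 0.47 and -0.26 on the wild type arrays against 0.29, 0.26 and -0.29 on the mutant arrays, a difference of 0.31 (SE 0.32, adjusted p = 0.783), and its second probe set differed by -0.012 (SE 0.15). The integrin subunits Itgam and Itgb2, which pair as complement receptor 3, differed by 0.089 (SE 0.20) and -0.11 (SE 0.17). The groups overlapped in Ptprc, Itgam and Itgb2.

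The actin-binding proteins of leukocytes had positive differences without passing. Lcp1, the bundling protein L-plastin, differed by 0.51 (SE 0.27), and by 0.11 (SE 0.22) on its second probe set. Aif1, known as Iba1 and a stain for microglia, differed by 0.17 (SE 0.27). Coro1a, a coronin, read -0.74, 0.22 and -0.27 on the wild type arrays against 0.095, 0.70 and -0.095 on the mutant arrays, a difference of 0.50 (SE 0.28, adjusted p = 0.566), and its other probe sets differed by 0.40 (SE 0.26) and -0.026 (SE 0.18). Wild type 1 was the lowest array for Coro1a and Aif1, unlike for the C1q chains.

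Subunits of the phagocyte oxidase, which makes superoxide, were mixed. Cybb, its catalytic subunit, read -0.14, 0.32 and -0.34 on the wild type arrays against -0.087, 0.087 and 0.14 on the mutant arrays, a difference of 0.10 (SE 0.19, adjusted p = 0.897), but another probe set read 0.10, 0.36 and 0.23 on the wild type arrays against -0.10, -0.14 and -0.16 on the mutant arrays, a difference of -0.36 (SE 0.15, adjusted p = 0.377) without overlap, and the remaining one differed by -0.20 (SE 0.17). Ncf1, the organiser subunit, read -0.70, 0.51 and 0.045 on the wild type arrays against 0.17, -0.045 and -0.61 on the mutant arrays, a difference of -0.11 (SE 0.31, adjusted p = 0.933), and its other probe sets differed by -0.38 (SE 0.17) and 0.23 (SE 0.18). Irf8, a transcription factor of the myeloid lineage, read -0.61, -0.044 and -0.41 on the wild type arrays against 0.19, 0.13 and 0.044 on the mutant arrays, a difference of 0.48 (SE 0.18, adjusted p = 0.333), with no overlap, and its second probe set differed by 0.013 (SE 0.15). Over all 15 genes with several probe sets, the signs disagreed in 8: Cd53, Coro1a, Cybb, Laptm5, Msr1, Ncf1, Ptprc and Trem2.

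The remaining genes of the same cells were split more evenly in sign, with 30 of 52 positive (45.9% of all genes). Of 57 further macrophage and microglia genes 52 were measured, 0 passed as higher and 1 as lower (0.748% of all genes passed in either direction). At an unadjusted p under 0.05, 7 were higher (8.22% of all genes) and 3 lower (7.34%). Their median difference was 0.095. The one that passed was Sall1, a microglial transcription factor that other developing tissues also make, which fell by 1.14 on the log2 scale (SE 0.16, adjusted p = 0.0365) from 0.80, 0.65 and 0.44 to -0.44, -0.48 and -0.62. Its second probe set differed by -0.80 (SE 0.24). Next came Cd83, an activation marker, with a difference of 0.89 (SE 0.15) and an adjusted p of 0.0504, just above the threshold, Clec7a, a receptor for fungal glucans, at 1.01 (SE 0.20, adjusted p = 0.0684), and C3ar1, the receptor for complement C3a, at 0.78 (SE 0.20, adjusted p = 0.153). Cd83 read -0.62, -0.57 and -0.33 on the wild type arrays against 0.33, 0.35 and 0.48 on the mutant arrays, and wild type 2 was not near the mutant arrays there. The groups did not overlap in Cd83, Clec7a or C3ar1.

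Of 16 genes of resident tissue and vessel-associated macrophages, Maf alone passed, with a difference of -1.32 (SE 0.20, adjusted p = 0.0385). Maf is also a lens fibre factor and stands in the lens list too. The clotting factor subunit F13a1 read -1.24, 0.16 and -2.31 on the wild type arrays against -0.16, 0.19 and 0.41 on the mutant arrays, with wild type 2 above mutant 1 and wild type 3 lowest, and a difference of 1.28 (SE 0.51, adjusted p = 0.369). Timd4, a phosphatidylserine receptor, and Siglec1, sialoadhesin, had negative differences, at -0.50 (SE 0.15) and -0.45 (SE 0.17), although 1 of 3 Siglec1 probe sets differed by 0.19. Of 6 measured class II antigen presentation genes, none passed in either direction, and the smallest p belonged to the class II beta chain gene H2-Eb1, at -0.57 (SE 0.21, adjusted p = 0.338). Among 23 measured genes of phagocytic lysosomes and lipid handling none passed. At an unadjusted p under 0.05, 5 were higher (8.22% of all genes) and 1 lower (7.34%). The smallest p belonged to the uptake receptor Axl at 0.82 (SE 0.18, adjusted p = 0.0887), the protease Ctsc at 0.75 (SE 0.20, adjusted p = 0.167), the lipid carrier Apoe at 0.61 (SE 0.18, adjusted p = 0.201) and the lectin Lgals3 at -0.47 (SE 0.15, adjusted p = 0.238). Second probe sets of Axl and Ctsc differed by 0.021 and -0.0016.

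The ligands of these receptors showed no call. None of 17 measured ligands and upstream signals passed, and 1 was higher at an unadjusted p under 0.05 (8.22% of all genes). It was Pros1, the protein S that bridges dying cells to Axl and its relatives, at 0.91 (SE 0.24, adjusted p = 0.158). Named for their receptors and outside the rule for named genes, Csf1 and Il34, the ligands of Csf1r, differed by 0.027 (SE 0.27) and -0.36 (SE 0.24), and Cx3cl1, the ligand of Cx3cr1, by -0.39 (SE 0.19).

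Markers of other cell types moved with the 33 genes in part. For the counts of calls below, 0.489% of all genes passed as higher and 0.258% as lower. Retinal neuron and progenitor genes, of which 10 of 23 measured rose and none fell, had array means of -0.88, -0.38 and -1.18 for wild type against 0.68, 1.12 and 0.36 for mutant. S, G2 and M phase genes, with 1 of 24 called higher (Rrm2, a ribonucleotide reductase subunit, at 1.24 (SE 0.20)), had -0.45, -0.13 and -0.67 for wild type against 0.36, 0.35 and 0.21 for mutant. Glial genes, with 1 of 8 called higher (Slc1a3, a glutamate transporter, at 1.36 (SE 0.22)), had -0.27, 0.0034 and -0.73 for wild type against 0.17, 0.25 and 0.054 for mutant. The retinal genes that rose were the transcription factors Atoh7, Neurod4, Otx2, Neurog2, Isl1, Ptf1a and Lhx2 and the neuronal genes Tubb3, Syt1 and Elavl3, from 1.19 for Lhx2 to 2.31 for Otx2. These are values of 1 probe set per gene. Probe sets of Syt1 disagreed in sign, from -0.29 (SE 0.25) to 1.70 (SE 0.27). By array means, wild type 2 was the highest wild type array and wild type 3 the lowest in all 3 lists, as in the 33 genes. Array medians kept this order in the retinal and cell cycle lists only. In the glial list wild type 1 was highest by median, at 0.047 against -0.081 in wild type 2. In the 33 genes wild type 1 was lowest by median, at -0.45 against -0.41 in wild type 3. The means of the 33 genes were -0.49, 0.035 and -0.64 for wild type against 0.030, 0.18 and 0.28 for mutant. Among the mutant arrays the order differed, since mutant 3 was the lowest in all 3 lists but the highest in the 33 genes. The groups of array means did not overlap in any of these 3 lists. For the 33 genes wild type 2 lay just above mutant 1 by mean. By array medians it lay below mutant 1, the lowest mutant array, at 0.0031 against 0.059. Microglia live in the retina, and the part of retinal tissue in the difference was not tested. Of 18 measured lens fibre and epithelium genes 4 fell and none rose (Dnase2b, Cdh1, Pdgfra and Maf), with array means of 0.44, 0.33 and 0.25 for wild type against -0.29, -0.50 and -0.34 for mutant.

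Endothelial and pericyte genes, of the vessels along which hyaloid macrophages lie, separated wild type arrays but not genotypes. Their array means were -0.084, 0.54 and -0.38 for wild type against 0.098, -0.047 and -0.077 for mutant, the median difference over 20 genes was -0.064, and none passed. Wild type 2 and wild type 3 were the extremes of the wild type group there too, and mutant lenses lay between them. Granulocytes share Fcgr3, Fcer1g, Tyrobp, Cd53, Ptprc, Itgam and Itgb2 with macrophages. The list of other leukocytes had array means of -0.025, 0.55 and 0.18 for wild type against -0.22, 0.0016 and 0.13 for mutant, with none of 24 passing. Its array medians were 0.0029, 0.0039 and 0.096 for wild type against -0.24, -0.021 and 0.14 for mutant. The mean of wild type 2 thus rests on a few genes such as S100a8 and S100a9, and the list as a whole was not high there. The smallest p in that list belonged to the T cell receptor chain Cd3g, at 0.77 (SE 0.17), and the granule protein Ltf, at -1.60 (SE 0.38). The high S100a8 and S100a9 of wild type 2 come with readings near the mutant level in the 33 genes, and leaving that array out enlarged the differences, as given above. The 7 measured erythroid genes, markers of blood, had means of -0.095, 0.022 and 0.30 for wild type against -0.26, -0.11 and 0.43 for mutant and no call. Whether vessels, blood or granulocytes had a part in the difference was not tested.

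**Figure D4:**
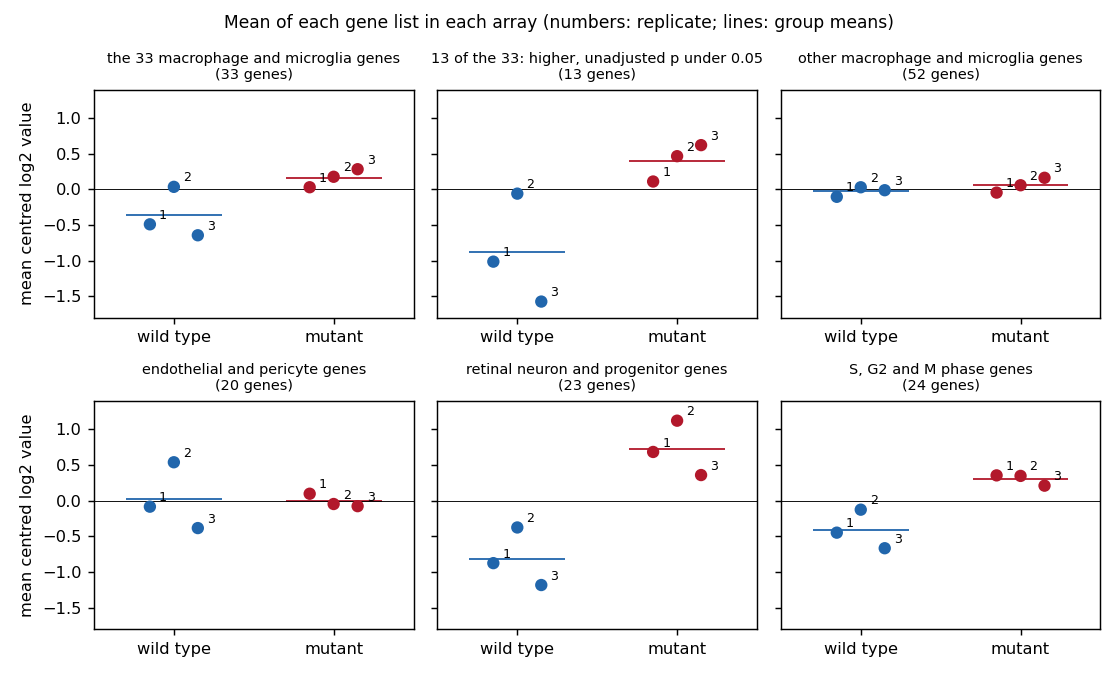
Mean centred log2 value (y axis) of 6 gene lists in each wild type (blue) and mutant (red) array, numbered by replicate, with lines at the group means. The 33 genes and the endothelial list share the high position of wild type 2 and the low position of wild type 3 among wild type arrays, and in the retinal and cell cycle lists every mutant array lies above every wild type array.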

How the data were processed

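Total RNA (100 ng) of lenses was made into biotinylated RNA from oligo(dT)-primed cDNA and hybridised to arrays, per the labels' protocols. The authors' deposited values are log2 values from RMA, per the submitters' processing notes, which give no version. The log base is inferred from RMA's usual output. The 6 values of a probe set have a median within 5e-07 of 0, a centring the labels do not describe, so no level and no filter on low values was possible. Of 45101 probe sets 64 controls were left out. Annotation gave 34945 probe sets 1 symbol, 932 several and 9160 none. The 61 member probe sets all matched RefSeq (GRCm38.p6) by Entrez identifier.

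Limma 3.58.1 in R 4.3.3 (lmFit, eBayes, 5.07 prior and 4 residual degrees of freedom) was fitted to all 45037 probe sets, with Benjamini-Hochberg adjustment, threshold 0.05. It was tested on simulated data. The members, lists and tests were chosen with earlier results of these data known. Named were the 33 members, and of other lists those that passed and up to 4 with the smallest p. Arrays in full are given for members at an unadjusted p under 0.05, for Cx3cr1, P2ry12 and Mrc1, and where probe sets differ in sign. With 3 arrays per group the number of arrays limits the precision. Alternatives were array weights, array medians subtracted, repeated quantile normalisation, a replicate block, a robust variance prior, an SD filter, other probe set rules, each array left out and, added after seeing the data, the Xist and hybridization control splits as blocks.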

Additional observations from a re-analysis of the deposited data

How the results depend on the processing

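With all arrays equal, the count of member probe sets that passed was 0 in limma, and 0 with array medians subtracted (0.451% of all probe sets passed), without _x_at and _s_at probe sets (0.504%) and with a robust variance prior (0.462%). It was 5 with array weights, 4 with quantile normalisation repeated, 2 with 1 probe set per gene (Ctss and Fcgr2b), and 11 among the 22518 probe sets with an SD above the median, where 3.28% of probe sets passed. That filter kept 45 of the 61 and tests fewer probe sets. Its SD includes the gap between the groups, so the filter is not independent of the difference tested. With the replicate number as a block (replicate block) 2 passed, Ctss and Fcgr2b, and 530 over all probe sets (1.18%) against 211. Same-numbered arrays deviated from their group means with correlations of 0.33, -0.14 and 0.26. Arrays with different numbers were not compared, so these values cannot decide whether same-numbered arrays were paired. Leaving out each array gave 0 to 6, the 6 without wild type 2, and a median difference over the members of 0.23 to 0.63. Over the other macrophage genes the median was 0.056 to 0.16 with an array left out. Chosen after seeing the data, the Xist split and the hybridization control split as blocks gave 0 member calls each (0.0844% and 1.75% of all probe sets), and the latter a median of 0.023 over the other macrophage genes.

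In 17 alternatives 16 of the 33 genes kept their sign, and they include 12 of the 13 higher genes. The 13 were chosen for a positive difference on the same arrays, which by itself favours an unchanged sign. Signs turned with array weights in Cx3cr1 (-0.039), Trem2 (0.21) and Ncf1 (0.048), with repeated quantile normalisation in Trem2 (0.071), with the hybridization control block in P2ry12 (0.026), Fcgr1 (-0.18) and Itgam (-0.028), and with the mean of a gene's probe sets in Trem2 (0.059), Laptm5 (0.11) and Cybb (-0.15). The probe set with the smallest SD turned Trem2 (0.14), Msr1 (0.037), Laptm5 (0.35), Ptprc (-0.012), Cd53 (-0.00014), Coro1a (-0.026), Cybb (-0.20) and Ncf1 (0.23). With an array left out the sign turned within these ranges: Cx3cr1 -0.24 to 0.49, P2ry12 -0.089 to 0.036, Gpr34 -0.22 to 0.023, Trem2 -0.19 to 0.27, Siglech -0.38 to 0.016, Fcgr1 -0.22 to 0.26, Cd14 -0.16 to 0.18, Cd163 -0.030 to 0.69, Itgam -0.030 to 0.29, Ptprc -0.021 to 0.66, Aif1 -0.12 to 0.35, Cybb -0.041 to 0.29 and Ncf1 -0.44 to 0.16. None of these turned values passed, and the cause was not tested.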

Other observations

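Further transcripts of white blood cells, named here after their values were seen, were highest in wild type 2 or in mutant lenses. Ngp, a protein of neutrophil granules, read -0.35, 3.57 and 0.086 on the wild type arrays against -0.31, 0.59 and -0.086 on the mutant arrays. Lcn2, a neutrophil lipocalin, read -0.23, 2.09 and 0.28 on the wild type arrays against -0.18, -0.072 and 0.072 on the mutant arrays, like Ngp highest in wild type 2. Chil3, a chitinase-like protein of alternatively activated macrophages and of neutrophil precursors, read -0.34, 2.42 and 0.25 on the wild type arrays against -0.049, -0.052 and 0.049 on the mutant arrays, again highest in wild type 2. Retnla, another product of alternatively activated macrophages, read -1.40, -0.54 and -0.21 on the wild type arrays against 0.21, 3.02 and 3.52 on the mutant arrays, a difference of 2.97 (SE 0.74, adjusted p = 0.129) in limma that did not pass. Mutant 2 and mutant 3 were far above the other arrays in Retnla, and mutant 1 was close to wild type 3.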
